A study of Drosophila melanogaster with 14 samples.

Results

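Kenyon cells, the intrinsic neurons of the Drosophila mushroom body, are born from a few neuroblasts in a fixed order, with γ neurons first, then α′/β′, then the pioneer neurons α/βp, and last α/βs and α/βc. The levels of 6 genes, known for temporal fate or for the ecdysone response in development, were followed along that order in the adult. They are Imp, Syp, chinmo, mamo, br and Eip93F, taken by name from the gene table, where they are 6 of 13931 genes. The transcript table lists 59 transcripts of the 6 genes among 30484.

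Nuclei were purified from heads of mixed-sex adults aged 2 to 5 days by TAPIN, a tandem affinity purification of nuclei tagged with UNC84-2XGFP, and nuclear RNA was sequenced. Every fly carried the UAS-unc84::2XGFP reporter and a split-GAL4 driver in the isogenic MJ2 background, and the groups differed in the driver. Antibiotics were added to the food of the flies. The drivers were MB607B for γd, MB131B for γm+d, MB370B for α′/β′ap+m, MB418B for α′/β′m, MB371B for α/βp, MB185B for α/βs and MB594B for α/βc. Each driver gave 2 libraries, so γ had 4, α′/β′ 4 and α/β 6, 14 in all. MB131B labels both γ subtypes and MB370B includes the α′/β′m cells, so these groups overlap with γd and α′/β′m. According to the study, each driver also labelled a few neurons outside the mushroom body. The study describes the 2 libraries of a subtype as independent biological replicates. The labels do not say whether replicates came from separate crosses, and p-values measure only the spread between these libraries.

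In neuroblasts, the RNA-binding proteins Imp and Syp form opposing gradients, with Imp high early and Syp high late. Imp favours and Syp opposes the production of Chinmo, a BTB zinc finger protein whose level separates early from late fates. Mamo, another BTB zinc finger protein, is needed for α′/β′ identity, and br and Eip93F encode transcription factors that respond to the steroid hormone ecdysone as development proceeds.

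Values are TPM, transcript abundances scaled by transcript length and by library total, and the number of reads behind each value was not used here. Each library listed between 5632 and 11359 genes above 0 TPM, and 2 sparse libraries, γd replicate 1 with 5632 and α/βp replicate 1 with 6534, stood below the rest together with γd replicate 2 at 7601. The neuronal marker elav lay between 1030 and 1914 TPM and the Kenyon cell factor ey between 631 and 2854 TPM, while the glial factor repo did not exceed 2.18 TPM. Neuroblast markers were low, since dpn did not exceed 13.7 TPM and ase 5.83 TPM. Summed markers of other cells differed between the classes, with ranges that partly overlapped. The 8 photoreceptor markers summed to 459 to 1068 TPM in γ, 1045 to 2216 in α′/β′ and 1353 to 4057 in α/β. The 5 fat body markers summed to 423 to 1331, 574 to 1974 and 1644 to 6117 TPM, and both sums were highest in α/βp replicate 2. A few genes carried these sums. In that library ninaE alone had 3569 TPM and Yp1 alone 3888 TPM. Photoreceptor markers other than ninaE and norpA did not exceed 73.2 TPM in any library.

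All 6 genes were at or above 10 TPM in all 14 libraries, so each passed the filter on low values in every group. They were not equally variable. Syp spanned 3.18-fold between its lowest and highest library, Eip93F 6.79-fold, chinmo 7.11-fold, Imp 38.5-fold, br 49.9-fold and mamo 120-fold. The highest library was γd replicate 2 for Imp, α′/β′m replicate 1 for chinmo and mamo, and α/βp replicate 1 for Syp, br and Eip93F. Because RNA was taken from pools of nuclei, fewer cells that express a gene and less RNA per cell cannot be told apart.

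**Figure D1:**
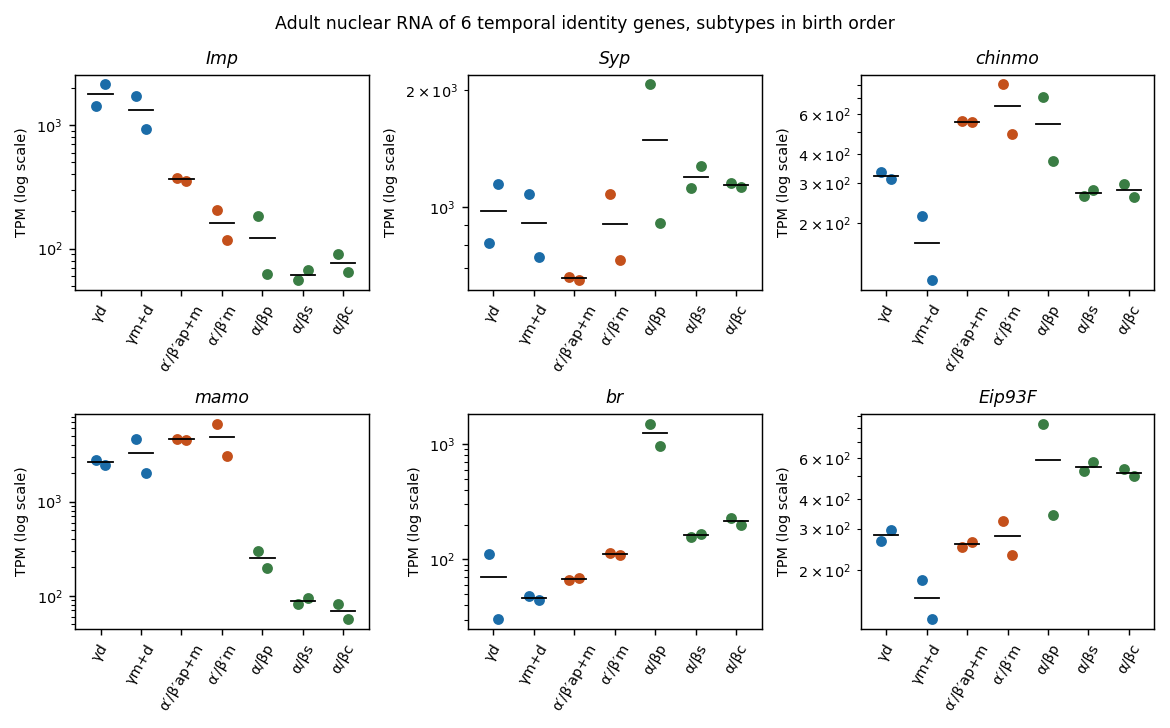
Level of each of the 6 genes (TPM, log axis that differs between panels) in the 7 subtypes in birth order. Points are the 2 libraries of a subtype, lines their mean, and colours the classes (blue γ, orange α′/β′, green α/β), where the γ subtypes share a birth rank, as do the α′/β′ subtypes. Imp runs from 937 to 2145 TPM in γ and from 55.7 to 182 TPM in α/β, mamo from 2013 TPM upwards in γ and α′/β′ and up to 303 TPM in α/β, and br is highest in the pair of α/βp libraries.

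Imp, which binds mRNAs and is known as the early factor, fell along birth order in the adult. In γ it was 1422 and 2145 TPM in γd and 1712 and 937 TPM in γm+d. In α′/β′ it was 372 and 356 TPM in α′/β′ap+m and 204 and 118 TPM in α′/β′m. In α/β it was 182 and 62.6 TPM in α/βp, 55.7 and 66.6 TPM in α/βs and 89.8 and 64.3 TPM in α/βc. Every γ library lay above every other library, whereas α/βp replicate 1 lay inside the α′/β′ range. By limma on quantile-normalized log2(TPM + 1), Imp was 2.57 (SE 0.46) higher in γ than in α′/β′ on the log2 scale, with a Benjamini-Hochberg adjusted p of 0.00285. It was 4.21 (SE 0.42) higher in γ than in α/β, a fold of 18.5, with a limma adjusted p of 5.67e-06. Both differences were called under all alternative processing, at 2.20 to 3.20 and 4.02 to 4.61.

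The step from α′/β′ to α/β was smaller for Imp, 1.64 (SE 0.42), with a limma adjusted p of 0.0257. This call was lost in 11 of 26 alternatives. Among them it had an adjusted p of 0.106 with 1 value per subtype and 0.164 with median-ratio scaling of TPM in limma, and 7 of the 11 left out a single library: either α′/β′ap+m library, either α/βs library, α′/β′m replicate 1, α/βp replicate 2 or α/βc replicate 2 (differences of 1.44 to 1.67). Ordered by mean, the subtypes ran γd, γm+d, α′/β′ap+m, α′/β′m, α/βp, α/βc and α/βs. Of these neighbours, γm+d against α′/β′ap+m and α′/β′ap+m against α′/β′m had libraries that did not overlap, and the others overlapped.

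Syp, the RNA-binding protein known as the late counterpart of Imp, was high in every class. It measured 747 to 1146 TPM in the 4 γ libraries, with a mean of 946 ± 197 (SD, n = 4). In α′/β′ it was 663 and 651 TPM in α′/β′ap+m and 1081 and 731 TPM in α′/β′m. In α/β the lowest library had 914, the median was 1142 and the highest 2068 TPM. The classes overlapped, and only α′/β′ap+m stood below all other libraries. No class difference of Syp was called by limma: 0.17 (SE 0.25, adjusted p = 0.80) for γ minus α′/β′, −0.53 (SE 0.23, adjusted p = 0.258) for γ minus α/β and −0.71 (SE 0.23, adjusted p = 0.0912) for α′/β′ minus α/β.

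The ratio of Imp to Syp within a library ordered the classes without overlap, which is given as a description since the pair was chosen for its known gradient. The ratio was 1.76 and 1.87 in γd and 1.58 and 1.26 in γm+d, so Imp exceeded Syp in all 4 γ libraries. It was 0.561 and 0.547 in α′/β′ap+m and 0.189 and 0.161 in α′/β′m. The α/β libraries had the lowest ratios, 0.0882 and 0.0685 in α/βp, 0.0498 and 0.0523 in α/βs and 0.0779 and 0.0569 in α/βc. Syp thus exceeded Imp in every α′/β′ and α/β library, by 1.78-fold in α′/β′ap+m replicate 1 and by 20.1-fold in α/βs replicate 1. The 4 subtypes from γd to α′/β′m did not overlap with each other or with α/β in this ratio, while α/βp and α/βc overlapped. The pair did not mirror each other library by library, since their correlation on the log scale was −0.33 over the 14 libraries, which share drivers and depth.

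**Figure D2:**
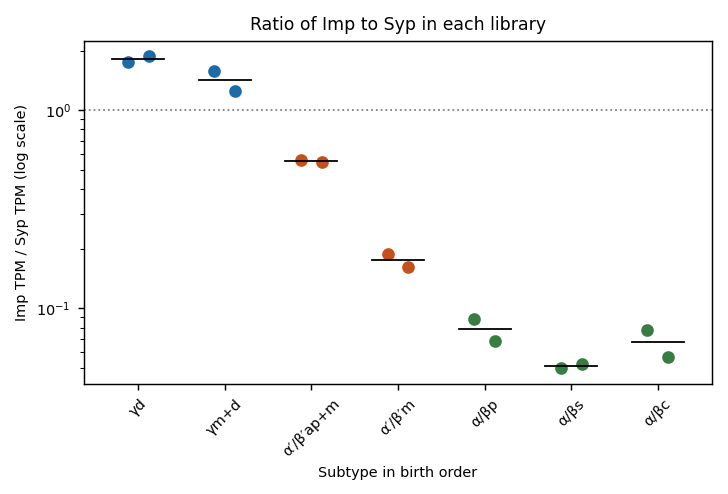
Ratio of Imp TPM to Syp TPM (log axis) in each library, with subtypes in birth order. Points are the 2 libraries of a subtype, black lines their mean, and the dotted line marks equal levels. The 4 γ libraries lie between 1.26 and 1.87, the α′/β′ libraries between 0.161 and 0.561 and the α/β libraries between 0.0498 and 0.0882.

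chinmo encodes a BTB zinc finger protein that is known to be highest in early-born neurons of the developing lineage. The values here are adult nuclear RNA, a different measure and time. chinmo RNA was not highest in adult γ nuclei. It was 333 and 311 TPM in γd and 215 and 113 TPM in γm+d. In α′/β′ it was 556 and 552 TPM in α′/β′ap+m and 806 and 491 TPM in α′/β′m. chinmo in α/β was 708 and 372 TPM in α/βp, 264 and 280 TPM in α/βs and 298 and 262 TPM in α/βc. The α′/β′ libraries all lay above the γ libraries, and the α/β libraries overlapped both. chinmo was −1.39 (SE 0.39) for γ minus α′/β′ on the log2 scale, with a limma adjusted p of 0.0643, which missed the threshold. The same difference was called in 5 of 26 alternatives, with a limma adjusted p of 0.0113 without the 2 sparse libraries, 0.0241 without α/βp replicate 1, 0.0453 without γd replicate 1, 0.0239 without the pair of α/βp libraries and 0.0123 when class means came from the subtype model. The other class differences were −0.54 (SE 0.35, adjusted p = 0.510) for γ minus α/β and 0.85 (SE 0.35, adjusted p = 0.245) for α′/β′ minus α/β in limma. The last was called in 1 of 26 alternatives, at 1.04 without the 2 sparse libraries (limma adjusted p = 0.0359).

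mamo, whose BTB zinc finger protein is known for α′/β′ identity, was abundant in both γ and α′/β′ and low in α/β. It was 2788 and 2468 TPM in γd, 4608 and 2013 TPM in γm+d, 4663 and 4545 TPM in α′/β′ap+m and 6745 and 3055 TPM in α′/β′m. In α/β it was 303 and 199 TPM in α/βp, 81.6 and 95.7 TPM in α/βs and 81.7 and 56.4 TPM in α/βc. The highest α/β library was below the lowest γ or α′/β′ library, and α/βp lay above α/βs and α/βc. mamo was 4.58 (SE 0.40) higher in γ than in α/β, a fold of 23.9, with a limma adjusted p of 1.67e-06. It was 5.50 (SE 0.40) higher in α′/β′ than in α/β, a fold of 45.3, with a limma adjusted p of 9.97e-08. Both calls held in all 26 alternatives, at 4.33 to 5.16 and 5.15 to 6.07. Between γ and α′/β′ the difference was −0.92 (SE 0.44), with a limma adjusted p of 0.341, and the libraries overlapped.

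Set against chinmo in the same library, mamo was 7.92 to 21.5 times as high in γ and 6.22 to 8.38 times in α′/β′, but 0.215 to 0.534 times in α/β. The order of these BTB genes was therefore opposite in α/β and the 2 earlier classes, with no overlap. Both ratios are per length and carry no test.

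br, an ecdysone-responsive BTB zinc finger gene, was highest in the α/βp libraries. It was 1504 and 967 TPM in α/βp, 157 and 166 TPM in α/βs and 229 and 198 TPM in α/βc. In the earlier-born classes it was 111 and 30.1 TPM in γd, 48.4 and 44.3 TPM in γm+d, 65.6 and 68.4 TPM in α′/β′ap+m and 113 and 108 TPM in α′/β′m. All α/β libraries lay above all others, and α/βp stood far above α/βs and α/βc. br was −2.47 (SE 0.60) for γ minus α/β, with a limma adjusted p of 0.0262, and −2.17 (SE 0.60) for α′/β′ minus α/β, with a limma adjusted p of 0.0419. With the pair of α/βp libraries left out, the differences were −1.58 (limma adjusted p = 0.0350) and −1.27 (limma adjusted p = 0.0914), so the second call was lost. The first call was lost in 8 of 26 alternatives and the second in 15, with limma adjusted p of 0.266 and 0.307 with 1 value per subtype. Single libraries whose omission lost the γ minus α/β call were γd replicate 2 (−2.32), γm+d replicate 1 (−2.45), γm+d replicate 2 (−2.22) and α/βp replicate 2 (−2.18). For α′/β′ minus α/β, omitting any α/βp or α′/β′ library, γd replicate 2 or γm+d replicate 1 lost the br call, at −1.76 to −2.40.

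Eip93F encodes a transcription factor induced by ecdysone that promotes adult differentiation in other fly tissues. It was 265 and 297 TPM in γd and 181 and 123 TPM in γm+d. It was 251 and 263 TPM in α′/β′ap+m and 324 and 232 TPM in α′/β′m. The α/β libraries had 839 and 341 TPM in α/βp, 528 and 574 TPM in α/βs and 537 and 502 TPM in α/βc. All 6 α/β libraries lay above all 8 earlier-born libraries, and the γ and α′/β′ libraries overlapped. Eip93F was −1.31 (SE 0.31) for γ minus α/β, with a limma adjusted p of 0.0223. It was −1.05 (SE 0.31) for α′/β′ minus α/β, with a limma adjusted p of 0.0590. The first call was lost with 1 value per subtype (limma adjusted p = 0.206), with median-ratio scaling (−0.98, limma adjusted p = 0.278), with no variance trend (limma adjusted p = 0.0942) and on omitting α/βs replicate 2 (−1.27), γm+d replicate 1 (−1.26) or γm+d replicate 2 (−0.98). The second was called in 5 alternatives, with limma adjusted p down to 0.0207. br and Eip93F were high in the class where the summed photoreceptor and fat body markers were also high, although norpA was highest in α′/β′. The part of photoreceptor and fat body cells in the result was not tested.

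**Figure D3:**
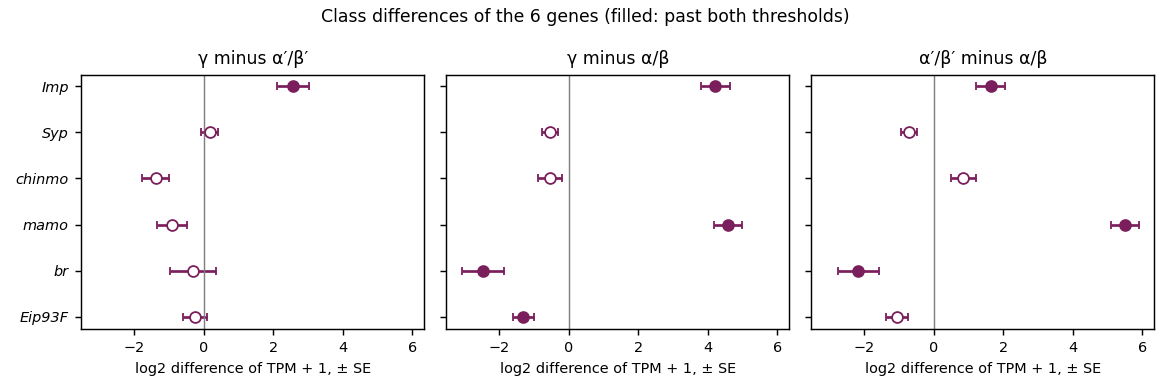
Difference of each gene between classes on the log2(TPM + 1) scale from limma, with bars of ± SE, for γ minus α′/β′, γ minus α/β and α′/β′ minus α/β. Filled points passed an adjusted p of 0.05 and a 2-fold difference: Imp in all 3 panels, mamo and br in the 2 panels against α/β, and Eip93F in γ minus α/β.

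Counted over the genes, 1 of 6 was higher in γ than in α′/β′ (Imp) and 0 lower, against 1.40% and 1.42% of the 8646 tested genes. For γ minus α/β, 2 were higher (Imp, mamo) and 2 lower (br, Eip93F), where 1.43% and 1.67% of tested genes were called. For α′/β′ minus α/β, 2 were higher (Imp, mamo) and 1 lower (br), where 2.30% and 2.59% of tested genes were called. Since the 6 genes were chosen with earlier results of these data known, such counts, here and below, are a description. The 0 lower calls in γ minus α′/β′ stand beside 2 genes with an unadjusted limma p under 0.05 in that comparison, Imp and chinmo. Over all tested genes the median difference was −0.16, −0.11 and 0.07 in the 3 comparisons, smaller in size than every called difference.

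Along the birth order taken as ranks (γ, α′/β′, α/βp, α/βs, α/βc), 2 of the 6 genes fell and 1 rose, where 1.12% and 1.43% of tested genes were called lower and higher. The fitted change from the earliest to the latest rank was −6.61 (SE 0.82) for mamo, with a limma adjusted p of 9.5e-05, and −4.56 (SE 0.68) for Imp, with a limma adjusted p of 0.000639. Both were called in all 26 alternatives, at −6.98 to −4.96 and −5.25 to −4.16. Eip93F rose by 1.55 (SE 0.40), with a limma adjusted p of 0.0450, and this call was lost in 15 of 26 alternatives, 11 of which left out a single library (1.28 to 1.74): any of the 4 α′/β′ libraries, either γm+d library, either α/βs library, either α/βc library or α/βp replicate 2. br was 2.24 (SE 0.90, limma adjusted p = 0.304), Syp 0.64 (SE 0.31, limma adjusted p = 0.445) and chinmo −0.06 (SE 0.55, limma adjusted p = 0.984), none of them called. br was called in 2 of 26 alternatives, at 2.58 with the classes ranked 1 to 3 (limma adjusted p = 0.0390) and at 1.82 without the pair of α/βp libraries (limma adjusted p = 0.0350). A gene that peaks midway is poorly described by a slope. br had its highest mean in α/βp, and chinmo and mamo had their highest class mean in α′/β′. mamo libraries overlapped between γ and α′/β′, and the fall of mamo lay between the α′/β′ and α/β ranks.

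Within classes few differences were called. Between γd and γm+d, 0 of 6 genes were called by limma, where 1.16% of tested genes were, although chinmo (1.19, SE 0.41, adjusted p = 0.158) and Eip93F (1.09, SE 0.41, adjusted p = 0.187) had an unadjusted p under 0.05 and their libraries did not overlap. Without γd replicate 2, br was called in this comparison (1.59, limma adjusted p = 0.0242). Between α′/β′m and α′/β′ap+m, 0 of 6 were called by limma, where 1.10% of tested genes were, and 0 had an unadjusted p under 0.05. Imp there was −1.23 (SE 0.61) with a limma adjusted p of 0.495. Between α/βs and α/βc, 0 of 6 members and 0% of tested genes were called by limma, with 356 of all genes and 0 of the 6 at an unadjusted p under 0.05.

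The α/βp libraries differed from the rest of the α/β class in br and, in part, mamo. From Gad1 RNA, the study proposes that the α/βp and α/βc drivers express weakly in some GABAergic neurons outside the mushroom body. The part of such cells in these differences was not tested. br was 2.84 (SE 0.48) higher in α/βp than in α/βs, a fold of 7.16, with a limma adjusted p of 0.0118, the 1 gene of 6 called where 1.99% of tested genes were. It was 2.56 (SE 0.48) higher than in α/βc, a fold of 5.91, with a limma adjusted p of 0.0141. mamo was 1.99 (SE 0.39) higher in α/βp than in α/βc, with a limma adjusted p of 0.0185, making 2 of 6 called in that comparison where 3.17% of tested genes were. mamo was 1.42 (SE 0.39) higher than in α/βs, with a limma adjusted p of 0.0873, which missed the threshold. It was called without α/βp replicate 2 (1.85, limma adjusted p = 0.0304) and with a replicate block (limma adjusted p = 0.0413). Omitting α/βp replicate 1 left br at 2.63 (limma adjusted p = 0.0576) and 2.35 (limma adjusted p = 0.0683) and mamo at 1.56 (limma adjusted p = 0.102), all no longer called, and with median-ratio scaling none of the 3 differences was called (limma adjusted p of 0.0738, 0.0762 and 0.145). The br calls were also lost without α/βs replicate 1 (2.76) or 2 (2.92) and without α/βc replicate 1 (2.73) or 2 (2.41), respectively, and the mamo call without α/βc replicate 2 (1.60). From these same libraries, the study had already listed br among the transcriptional regulators enriched in α/βp. The counts of 1 and 2 of 6 are therefore a description and no independent result.

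Replicates of a subtype moved together across the 6 genes in places. In α/βp, all 6 were higher in replicate 1, by 1.53-fold for mamo up to 2.91-fold for Imp. In γm+d and in α′/β′m all 6 were also higher in replicate 1, by 1.09-fold (br) to 2.29-fold (mamo) and by 1.05-fold (br) to 2.21-fold (mamo). Replicate 1 of these subtypes also listed fewer genes above 0: 6534 against 9602 in α/βp, 8836 against 10366 in γm+d and 9784 against 11359 in α′/β′m. γd replicate 1 also listed fewer (5632 against 7601), yet Imp, Syp and Eip93F were higher in γd replicate 2. How the number of genes listed bears on these levels was not tested. The pair of α′/β′ap+m libraries differed by at most 1.05-fold in any of the 6. The ratio br to mamo was steadier than the levels in α/βp, at 4.96 and 4.87.

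Transcripts of the 6 genes were next compared as shares of each gene's TPM. Of the 59 transcripts, 9 were listed at 0 in all libraries and 42 reached 10 TPM in at least 1. Annotated starts divide them into 27 groups, 5 each for Imp, Syp and mamo, 8 for br and 2 each for chinmo and Eip93F. How kallisto divided reads among transcripts that share exons was not tested.

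chinmo had a single dominant transcript, chinmo-RH, at 77.9% to 97.5% of chinmo TPM in every library. The class pattern of chinmo was thus that of chinmo-RH, which measured 91.3 to 283 TPM in γ and 409 to 731 TPM in α′/β′. Imp-RH was the largest Imp transcript in every library, at 33.0% to 80.9%, and all 12 Imp transcripts end coding in the same exon. Imp-RJ had 98.4, 294, 177 and 134 TPM in γ and at most 9.56 TPM in α/β. As a share of Imp TPM the classes overlapped, with 6.9% to 14.3% in γ and 0% to 17.15% in α/β, highest in α/βs replicate 1. Relative to the other Imp transcripts, Imp-RJ was not called for γ minus α/β (2.91, adjusted p = 0.094 by limma's diffSplice). Eip93F-RA and Eip93F-RC were listed at the same TPM in every library, so their sum, 54.2% to 99.4% of Eip93F, is better read than either. Syp was spread over several transcripts: Syp-RE took 40.2% and 41.2% in γd replicate 1 and α/βp replicate 1, the 2 sparse libraries, and at most 1.67% elsewhere.

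mamo changed its mix of transcripts along with its level. mamo-RE made up 16.7, 20.3, 26.1 and 24.1% of mamo in γ, 37.0, 36.9, 31.6 and 28.9% in α′/β′, and 41.6% to 64.0% in α/β with a median of 60.9%. The 3 classes did not overlap, yet relative to the other mamo transcripts no difference of mamo-RE was called by limma's diffSplice (adjusted p of 0.644, 0.931 and 1 in γ minus α′/β′, γ minus α/β and α′/β′ minus α/β). mamo-RC, which alone ends coding in its own last exon, made up 54.8, 42.1, 31.0 and 30.3% in γ and 14.9, 15.5, 18.7 and 17.0% in α′/β′, and 8.20% to 32.1% in α/β. Its γ and α′/β′ shares did not overlap, and the diffSplice adjusted p for γ minus α′/β′ was 0.946. The other mamo transcripts in this test include mamo-RD and mamo-RH. These had 67.3 and 91.8 TPM in γd replicate 1 and lay near 0 in the other γ and all α′/β′ libraries. Because the reference rests in part on such values, the missing calls for mamo-RE and mamo-RC cannot decide whether the shares differ. mamo-RG was 11.6% to 17.7% of mamo in γ and α′/β′ and 1.83% to 10.3% in α/β.

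**Figure D4:**
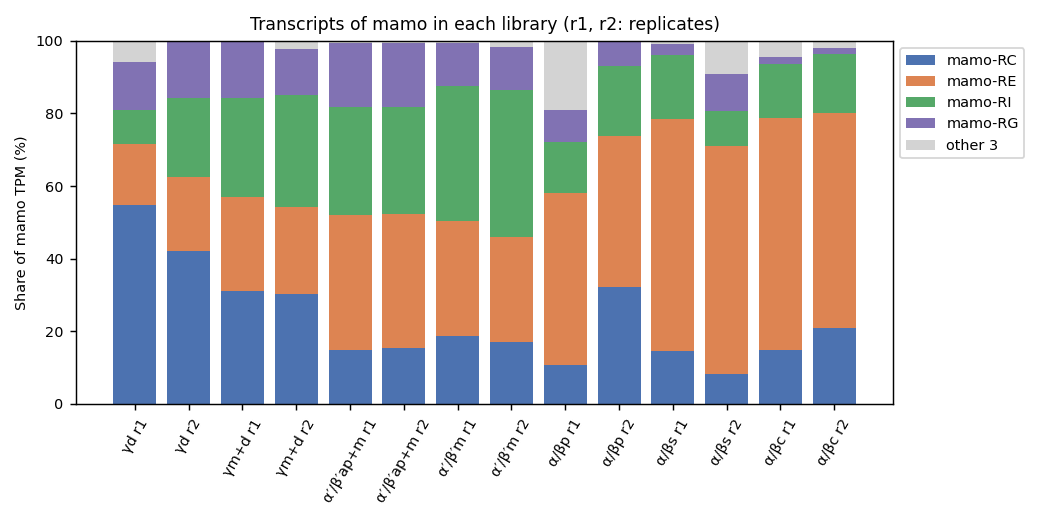
Share of mamo TPM (%) taken by each transcript in the 14 libraries, in birth order from left to right. Colours are the 4 largest transcripts, and grey is the sum of mamo-RD, mamo-RF and mamo-RH. The mamo-RE segment takes 16.7% to 26.1% in γ and 41.6% to 64.0% in α/β, and the mamo-RC segment is largest in γd replicate 1, at 54.8%.

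By diffSplice, 0 of the tested member transcripts were called between γ and α′/β′, where 0.583% of 11495 tested transcripts were, and 10 of 42 had an unadjusted p under 0.05. Between γ and α/β, br-RA was called (5.10 relative to other br transcripts, adjusted p = 0.000678), where 0.557% of transcripts were, although it did not exceed 11.1 TPM and was listed at 0 in 8 libraries. Without γd replicate 2 it no longer reached 10 TPM and was not tested. Between α′/β′ and α/β, 4 mamo transcripts were called, where 0.626% of transcripts were. mamo-RG (3.79, adjusted p = 0.0290) and mamo-RI (3.65, adjusted p = 0.0435) were called higher in α′/β′ than in α/β by diffSplice, relative to the other mamo transcripts. Leaving out any α′/β′ or α/βc library, α/βs replicate 1 or γd replicate 1 ended both calls, and for mamo-RI so did leaving out α/βs replicate 2 or γd replicate 2, with differences of 2.97 to 4.08 for mamo-RG and 2.75 to 3.74 for mamo-RI. mamo-RD (−5.10, adjusted p = 0.000454) and mamo-RH (−6.11, adjusted p = 1.04e-05) were called in the other direction by diffSplice, but they were listed at 0 in 11 and 8 libraries. mamo-RD was listed at 0 in every α′/β′ library and at no more than 2.99 TPM in α/β, and it passed the filter only through γd replicate 1, at 67.3 TPM, without which it was not tested. Its call between α′/β′ and α/β therefore rests on values near 0. mamo-RH did not exceed 0.18 TPM in α′/β′ and was above 0 in 2 of 6 α/β libraries, α/βp replicate 1 at 58.0 TPM and α/βs replicate 2 at 8.05 TPM. The mamo-RG and mamo-RI values are relative to the other mamo transcripts, which include mamo-RD and mamo-RH. Their calls therefore rest in part on transcripts near 0 in α′/β′. With transcripts required to reach 10 TPM in 4 libraries, 0 of the member transcripts were called between α′/β′ and α/β.

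br-RB was the largest br transcript in every library, at 33.3% to 90.3%. In α/βp, br-RN took 28.6% (429 TPM) in replicate 1 and 6.66% (64.3 TPM) in replicate 2, and at most 6.22 TPM in any other library. The pair of α/βp libraries therefore agreed on a br-RN level above all others but not on its share.

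In the BDGP6 assembly, 3 of the 6 genes lie on chromosome X: Imp at 10787869 to 10824277 on the minus strand, mamo at 13846116 to 13990527 on the minus strand and br at 1575132 to 1664869 on the plus strand. Syp lies on chromosome arm 3R at 20756729 to 20810726 and Eip93F on 3R at 21949114 to 22014539, both on the plus strand, and chinmo on 2L at 1651258 to 1704682 on the plus strand. mamo, at 144412 bases, is the longest. Whether reads were assigned by strand is not given in the sources used here. Imp shares 1955 exonic bases with lncRNA:CR45204 on its own strand, which is not in the table, and br shares 189 exonic bases with Mur2B on the opposite strand, so reads in these stretches cannot be assigned with certainty. The genes that overlap Syp (Takl1, CG31195) and mamo (CG11068) share 0 exonic bases with them.

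The genes whose pattern was most like each member were ranked by Pearson r over the 14 libraries on the log scale, as a description of libraries that share drivers and depth. For mamo they were nAChRalpha6, a nicotinic acetylcholine receptor subunit (r = 0.975), cmpy (r = 0.971) and Cngl (r = 0.961). For Imp they were SIFaR, the receptor of the neuropeptide SIFamide (r = 0.951), CG34353 (r = 0.916) and CG13055 (r = 0.912). For chinmo they were Sap47, a synapse-associated protein (r = 0.946), bnl (r = 0.912) and corto (r = 0.889), of which bnl did not exceed a subtype mean of 23.3 TPM. Those of br were CG11458 (r = 0.925), CG46301 (r = 0.925) and CG43759 (r = 0.894), of which CG11458 did not exceed a subtype mean of 14.4 TPM. Those of Syp were btd (r = 0.963), RN-tre (r = 0.912) and mus101 (r = 0.909). Of these, btd did not exceed a subtype mean of 11.1 TPM and mus101 did not exceed 9.31 TPM. Those of Eip93F were CG5455 (r = 0.898), Irk1 (r = 0.876) and CG9932 (r = 0.867). Irk1 did not exceed a subtype mean of 1.775 TPM in γ and α′/β′, so its r rests in part on values near 0. Among the 6 themselves r was highest for Syp with Eip93F (0.83) and lowest for mamo with Eip93F (−0.71).

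Other genes of these pathways were counted for comparison. Of 13 other BTB transcription factors, 12 were tested and 3 were called in at least 1 class comparison, against 7.06% of all tested genes. These were ab and fru, which were higher in γ than in α′/β′ by 5.76 and 2.70 and than in α/β by 4.54 and 1.89, and psq, which was lower in γ than in α′/β′ (−1.10). Of 18 ecdysone signalling genes, 16 were tested and 2 were called, Eip63E, higher in α′/β′ than in α/β (1.66), and the nuclear receptor Hr39, lower (−1.14). Among the 16, 10 had an unadjusted limma p under 0.05 in at least 1 class comparison. In each single class comparison, 1243 to 1348 of all 8646 tested genes had such a p. The ecdysone list's median difference for γ minus α/β was −0.39, against −0.11 over all genes. Of 20 temporal factors of embryonic and optic lobe neuroblasts, 12 were tested and 1 was called: dan was higher in γ than in α′/β′ (3.39) and in α/β (4.37), at 56.8 TPM in γd and 9.30 TPM in γm+d on average. Of 14 heterochronic and RNA-binding regulators, 12 were tested and 1 was called, pum, a translational repressor, lower in γ than in α′/β′ (−1.08). Of 12 activin and BMP signalling genes, some of which act in γ neuron remodelling, 11 were tested and 0 were called by limma, with 4 at an unadjusted p under 0.05 in at least 1 class comparison.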

How the data were processed

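The submitters' notes name kallisto and the builds BDGP6 and dm6. According to the study's methods, the authors ran kallisto on trimmed reads against the BDGP6 transcriptome of Ensembl, then took out ribosomal RNA, spike-in and reporter entries and rescaled what was left to TPM. The deposited gene TPM equal the sums of the transcript TPM within 0.02 for the 6 genes. Counts and read numbers were not used here. The precision given is the limma SE, or the SD between libraries where marked. Libraries were grouped by driver, and 0 per-sample columns remained without a sample.

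TPM were transformed as log2(TPM + 1), quantile-normalized, and fitted with limma 3.58.1 in R 4.3.3 (variance trend, two-sided, Benjamini-Hochberg per comparison), keeping 8646 of 13931 genes that reached 10 TPM in any library. Differences were called at an adjusted p below 0.05 and 2-fold or more. Fold changes of low genes are understated on this scale. Transcript use was tested with diffSplice on 11495 transcripts of 3660 genes. The steps were tested on simulated data. Alternatives changed the filter, pseudocount, scaling, variance trend, replicates and class model. Named genes were the 6, the 3 tested genes of highest r with each, and up to 4 called genes per list. The members and lists were chosen with earlier results of these data known. The table of subtype means and the authors' class results were not used. Positions and gene overlaps came from the Ensembl annotation of BDGP6, and no sequence is printed.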

Additional observations from a re-analysis of the deposited data

Results flagged for a closer look

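In α/βp replicate 1, 3 of the 6 genes stood far from the other 5 α/β libraries, by the gap to the nearest library divided by the range of the class. Imp was 182.46 TPM there, against at most 89.8 TPM in the others. Syp was 2068.04 TPM, against at most 1274 TPM. chinmo was 708.15 TPM, against at most 372 TPM. All 3 come from the same library, which listed 6534 genes above 0. Over the 18 groups examined (6 genes in 3 classes), chance alone would single out about 1 in 20 for normal values of 1 subtype. The α/β class pools α/βp, α/βs and α/βc on the TPM scale, and the flags share 1 library. That rate therefore cannot tell whether 3 flags exceed chance.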

How the results depend on the processing

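Over the 26 alternatives of a class or birth-order comparison, no difference of the 6 genes that was called changed sign. The differences of Eip93F between γ and α′/β′ (−0.47 to 0.19) and of the chinmo slope (−0.57 to 0.41), neither called, did. With 1 value per subtype, calls over all genes were 33 for the slope (221 with 14 libraries), 160 for α′/β′ minus α/β (423), 57 for γ minus α/β (268) and 56 for γ minus α′/β′ (244), and those of the 6 genes 1 (3) and 2 (4) in the 2 comparisons with α/β. The subtype model gave 692, 506 and 562 genes, and 2 of the 6 for γ minus α′/β′ (1), as did leaving out the sparse pair or, chosen after seeing the data, the pair of α/βp libraries. α′/β′ minus α/β had 1 of the 6 with median-ratio scaling, no filter or no variance trend, and γ minus α/β had 2 with median-ratio scaling or no variance trend. For transcripts, α′/β′ minus α/β gave 0 member calls with 10 TPM in 4 libraries and 2 with no normalization beyond TPM (4), γ minus α/β 3 with no normalization (1), and γ minus α′/β′ 1 member (0) and 44 transcripts in all (67) with no normalization.

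Within classes, without the sparse pair, with median-ratio scaling and with no normalization, α/βp minus α/βc had 467, 89 and 114 genes (274) and 1, 0 and 1 of the 6 (2), the last also 1 with no variance trend. α/βp minus α/βs had 352, 40 and 60 genes (172), and 0 of the 6 with median-ratio scaling (1). α′/β′m minus α′/β′ap+m had 366, 42 and 43 genes, and 143 with no filter (95). γd minus γm+d had 273, 172 and 255 genes, and 62 with no variance trend (100). α/βs minus α/βc had 4 without the sparse pair and 6 with no filter (0). The cause of these changes was not tested.

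With single libraries omitted in turn, there were 130 to 257 genes for the slope. Of the 6 genes, these omissions called 1 to 4 for α′/β′ minus α/β, 2 to 4 for γ minus α/β and 1 to 2 for γ minus α′/β′. Transcript calls were 40 to 93 (1 to 4 of them transcripts of the 6 genes), 47 to 274 (0 to 3) and 24 to 286 (0 to 3) in the same order. They called 62 to 925 genes (0 to 2 of the 6) for α/βp minus α/βc, 32 to 687 (0 to 2) for α/βp minus α/βs, 0 to 10 for α/βs minus α/βc, 16 to 138 for α′/β′m minus α′/β′ap+m and 5 to 1131 (0 to 1) for γd minus γm+d.

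Samples with the same replicate number did not deviate together: 3 of 21 pairs of subtypes had r above 0.1 (−0.06 to 0.21). The replicate block called 2 of the 6 genes for α/βp minus α/βs (1), with mamo at a limma adjusted p of 0.0413, and 2 member transcripts for γ minus α/β (1).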
